A study of Homo sapiens with 42 samples.

Results

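OCI-Ly3 is an established human lymphoma line of the activated B cell-like type of diffuse large B-cell lymphoma. The results below are about what its transcript levels did between 8 h and 24 h of culture with DMSO, and which of those time changes were also seen with a MALT1 inhibitor. The time changes rest on 12 of the 42 libraries of the series, chosen by cell line, agent and time as the sample titles give them. The cells received DMSO, the usual solvent, for 8 h or for 24 h, or compound 3 at 100 nM for 8 h or for 24 h, with 3 libraries in each of these 4 groups. Compound 3 is, by the title of the series, one of a set of covalent MALT1 inhibitors, and all 4 groups are the same parental line with no other agent named. Libraries of untreated cells or of the start of the culture are not analysed here, so a time change is the step from 8 h to 24 h and nothing earlier. Nothing in the labels says that replicates were grown apart, so each p-value covers the spread between these libraries alone, and that spread may be technical.

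MALT1 is a protease and a scaffold. It is part of a complex that carries signals from the B-cell receptor to the transcription factor NF-kB, and its protease activity cleaves brakes on that pathway such as A20 and CYLD and RNA-degrading proteins such as Regnase-1. Activated B cell-like lymphomas are known for constant NF-kB signalling. The deposited values list each gene model by a running number and do not pair the numbers with gene names. The genes behind the rows, B-cell markers, NF-kB target lists and the level of MALT1 itself therefore cannot be read here, and no sequence is shown. The time change is described by how many rows rose or fell, how far, in which libraries, and which of them moved otherwise with the inhibitor. At most 2 rows that rose and 2 that fell are given by number.

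Each library implied a total of 34.7 to 40.9 M reads, of which 74.1% to 79.6% lay in the 23250 rows, so a CPM (reads scaled to the library total, as the authors deposited them) of 1 stood for 34.7 to 40.9 reads. A row was tested if 3 or more of the 12 libraries reached a CPM of 1, which left 11889 rows. Libraries of the same replicate number deviated from their group means together. The correlation of these deviations across rows was 0.518, 0.706 and 0.322 for numbers 1, 2 and 3 between the DMSO times, 0.718 to 0.822 between DMSO and compound 3 at 8 h, and 0.386 to 0.613 between them at 24 h. Between the compound 3 times it was 0.0225, 0.287 and 0.160, so the numbers paired less well there, and number 1 least. Only number 2 at 8 h correlated best with its own number at 24 h there. Number 1 at 8 h correlated best with number 2 and number 3 with number 1, whereas in the comparisons above each number matched itself best. The median SD of a row within a group, on the log2(CPM + 1) scale, was 0.217 with DMSO and 0.209 with compound 3 at 8 h, and 0.172 and 0.0961 at 24 h, so the 8 h libraries scattered more. At most 172 rows of any library deviated by over 1 log2 unit from the average of the rest of its group. Below, a row is said to have risen or fallen where limma, with the replicate number as a block and Benjamini-Hochberg adjustment over all tested rows, gave an adjusted p below 0.05. In RNA from whole cultures, fewer cells of a type and less RNA per cell cannot be told apart.

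With DMSO alone, many rows changed between 8 h and 24 h, mostly by less than 2-fold. Of the 11889 rows tested, 1713 (14.4%) passed the limma test, 753 higher at 24 h (6.33%) and 960 lower (8.07%). The median log2 fold change was 0.47 among those that rose and -0.60 among those that fell, beside -0.01 over all rows tested. The larger changes were falls: 110 rows fell at least 2-fold, while 8 rose as far. The change per row ran from -2.81 to 1.25 on the log2 scale. In 1709 of the 1713 rows all 3 pairs of libraries moved the same way, beside 6002 of all 11889 rows tested. In 1344 of the 1713 (78.5%) the libraries of the 2 times did not overlap at all, beside 21% of all rows tested. The test that chose the rows used the same pairs and libraries, so these counts are a description.

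The count of rows leans on the pairing and on single libraries. Without the replicate block limma called 162 rows, 41 higher and 121 lower, all among the 1713. Pair 1 moved furthest: its median change was 0.634 over the risen rows and -0.785 over the fallen ones, against 0.424 and -0.571 in pair 2 and 0.362 and -0.453 in pair 3. The count was 255 without DMSO 8 h replicate 1, 318 without DMSO 24 h replicate 1, 465 without DMSO 24 h replicate 2, 1118 without DMSO 8 h replicate 2 and 1136 without DMSO 8 h replicate 3. All 1713 rows kept the sign of their change in each of these settings. The rows were chosen on these libraries, and the fold change is the same without the block, so the kept signs are no further support.

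Falls were found mainly among weakly expressed rows and rises among strongly expressed ones. Tested rows were ranked by mean CPM over the 12 libraries and divided into 3 equal sets of 3963. In the weakest set, up to 12.01 CPM, 128 rows rose (3.23%) and 493 fell (12.4%). In the middle set, up to 44.5 CPM, 209 rose (5.27%) and 257 fell (6.48%). In the strongest set, up to 6612 CPM, 416 rose (10.5%) and 210 fell (5.3%). After median-ratio rescaling the order was as marked, with 156 rises and 471 falls in the weakest set and 483 and 180 in the strongest. After quantile normalization, which gives every library the same distribution of values, it was much smaller: 260 rose and 266 fell in the weakest set and 284 rose and 258 fell in the strongest. With edgeR the counts were 140 and 494 in the weakest and 442 and 184 in the strongest, much as with limma, whereas without the block the strongest set held 12 that rose and 32 that fell.

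**Figure D1:**
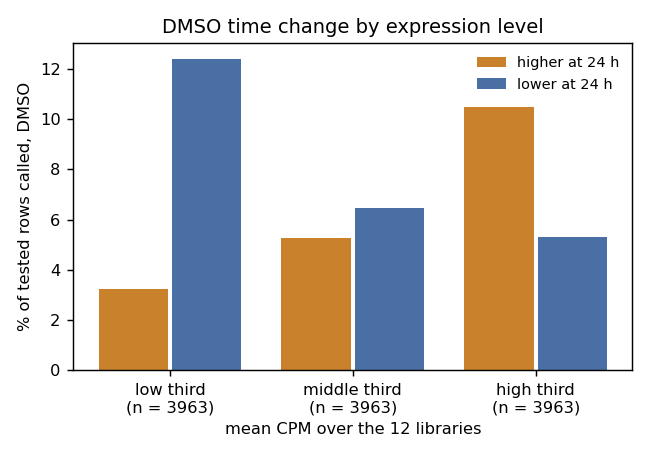
Percent of tested rows called higher (orange) or lower (blue) at 24 h than at 8 h with DMSO (limma, replicate block), by mean CPM over the 12 libraries in 3 sets of 3963 rows. Falls make up 12.4% of the weakest set and 5.3% of the strongest, rises 3.23% and 10.5%; after quantile normalization the weakest set held 260 rises and 266 falls and the strongest 284 and 258.

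Row 16032 had the largest rise of the rows that rose under both agents and reached a mean of 10 CPM. It held 8.01, 6.26 and 7.89 CPM in the DMSO 8 h libraries and 22.8, 14.4 and 20.2 CPM in the DMSO 24 h libraries, numbers 1 to 3. With compound 3 it held 8.79, 6.17 and 12.3 CPM at 8 h and 19.8, 13.3 and 18.3 CPM at 24 h. Every 24 h library lay above every 8 h library of either agent, and number 2 was the lowest in each of the 4 groups. The log2 fold change was 1.25 (SE 0.13; limma adjusted p = 0.000315) with DMSO and 0.88 (SE 0.13; limma adjusted p = 0.0033) with compound 3. The change with compound 3 was not called without the replicate block (limma adjusted p = 0.102) or without all 4 libraries numbered 1 or 2 (limma adjusted p = 0.0837 and 0.0796). The difference between the time changes, -0.37 (SE 0.19; limma adjusted p = 0.853), did not pass the test.

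Row 4302 had the largest fall with DMSO of all rows tested. It held 63.1, 61.4 and 11.7 CPM at 8 h and 4.21, 3.99 and 4.64 CPM at 24 h with DMSO. The compound 3 libraries gave 63.8, 59.8 and 13.7 CPM at 8 h and 5.65, 4.60 and 4.80 CPM at 24 h. Both 8 h libraries numbered 3 were about as low as each other and far below the other 8 h libraries, while all 24 h libraries lay close together and below every 8 h library. The log2 fold change was -2.81 (SE 0.43; limma adjusted p = 0.00243) with DMSO and -2.69 (SE 0.43; limma adjusted p = 0.00394) with compound 3, where it was not called without the block (limma adjusted p = 0.0646). Without all 4 libraries numbered 1 or 2 neither call held (limma adjusted p = 0.0576 and 0.0581 with DMSO, 0.0856 and 0.112 with compound 3). Their difference was 0.13 (SE 0.61; limma adjusted p = 0.974), and its sign turned in 6 of the 12 fits that left out 1 library.

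**Figure D2:**
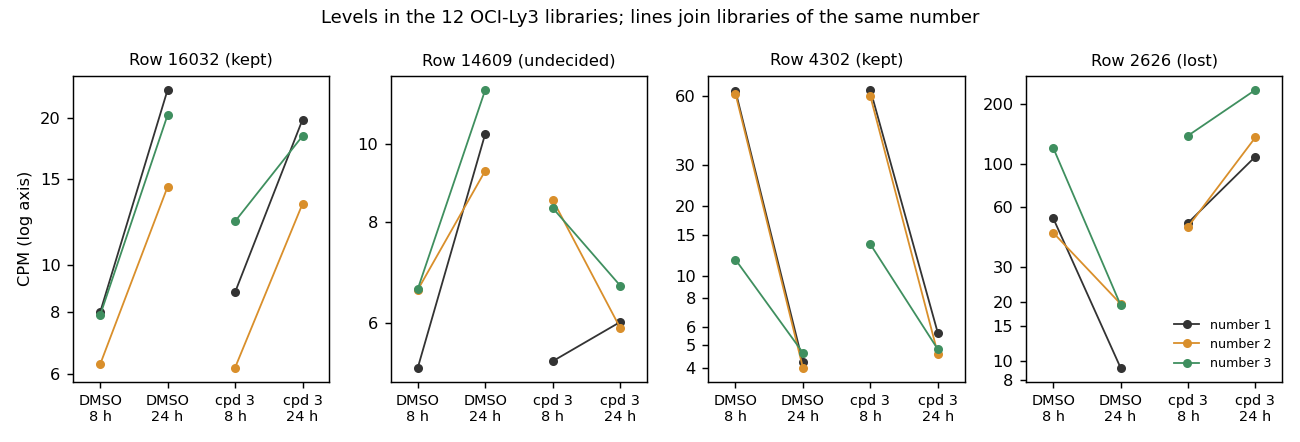
CPM of 4 rows in the 12 OCI-Ly3 libraries, each panel with its own log axis; points are libraries, lines join libraries of the same replicate number, and the word beside a row's number is its class. Rows 16032 and 4302 moved the same way under both agents. Row 14609 rose with DMSO and was not called with compound 3, and its difference between the agents did not pass the test. Row 2626 fell with DMSO while its compound 3 libraries lay higher at 24 h.

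With compound 3, 888 rows (7.47%) passed the same test between 8 h and 24 h, 363 higher (3.05%) and 525 lower (4.42%). Their median log2 fold changes were 0.52 and -0.61, and 14 rose and 60 fell at least 2-fold. This majority of falls depended on the scaling: 40.9% of the called rows were rises, against 53.1% after median-ratio rescaling (529 higher, 467 lower), 51.1% after quantile normalization (471 and 450) and 51.9% with edgeR (511 and 474). With DMSO the share of rises was 44.0%, and 50.5% and 50.8% after the same 2 scalings. Without the replicate block 74 rows were called with compound 3, 22 higher and 52 lower. Leaving out compound 3 8 h replicate 1 or 2 left 149 or 201 rows, leaving out compound 3 24 h replicate 1, 2 or 3 left 252, 406 or 496, and leaving out compound 3 8 h replicate 3 gave 1418. In a fit of each agent on its own, 1311 rows were called with DMSO and 438 with compound 3. The lower count with compound 3 is not by itself a difference from DMSO, which was tested row by row and is given below.

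The largest called rise under either agent was seen with compound 3, and that row was not called with DMSO. It was in a weakly expressed row that held 0.141, 0.311 and 1.95 CPM at 8 h and 4.43, 10.7 and 45.4 CPM at 24 h with compound 3. Number 3 was the highest library at both times and the groups did not overlap. Its log2 fold change was 3.13 (SE 0.54; limma adjusted p = 0.00635), and the difference from the DMSO time change, 3.90 (SE 0.77; limma adjusted p = 0.0835), did not pass the test.

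Most DMSO time changes went the same way with compound 3. The DMSO and compound 3 time changes share no library, although libraries of the same number deviate together between the agents, so they are not fully independent. Of the 1713 rows that changed with DMSO, 1624 (94.8%) had a compound 3 change of the same sign, beside 8745 of 11889 (73.6%) over all rows tested. The share was 97.6% (735 of 753) for rises and 92.6% (889 of 960) for falls. Across all tested rows, which are not independent replicates, Pearson's r of the 2 changes was 0.682.

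The changes were smaller with compound 3 over the rows picked for DMSO, and the reverse held as well. The 753 rows that rose with DMSO had a median log2 fold change of 0.47 with DMSO and 0.31 with compound 3. The 960 that fell had medians of -0.60 and -0.38. The median ratio of the compound 3 change to the DMSO change was 0.632 for rises and 0.663 for falls. Among the 888 rows picked on compound 3, the median ratio of the DMSO change to the compound 3 change was 0.686 for rises and 0.819 for falls, and 833 of them (93.8%) had the same sign with DMSO. A smaller change under the agent not used to choose the rows was thus seen in both directions of choice.

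**Figure D3:**
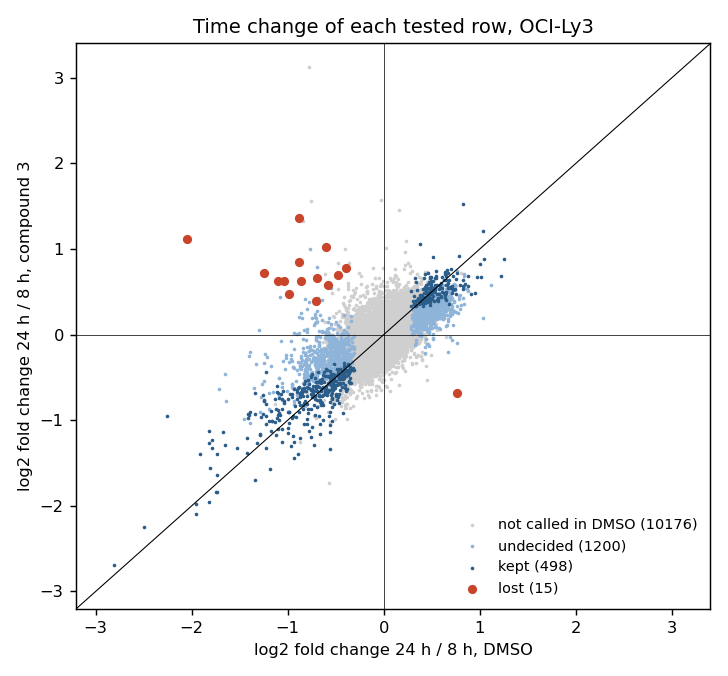
Log2 fold change from 8 h to 24 h with DMSO (horizontal) and with compound 3 (vertical) for the 11889 tested rows; the diagonal marks equal change. Kept rows (498, dark blue) passed the test under both agents in the same direction, lost rows (15, red) had a difference called against the DMSO direction, undecided rows (1200, light blue) passed with DMSO and met neither condition, and rows not called with DMSO are grey.

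The 1713 rows fall into 3 classes. In 498 rows the change was kept, which means that it was called with compound 3 too and in the same direction. These are 29.1% of the rows that changed with DMSO and 56.1% of those that changed with compound 3, and comprise 170 rises and 328 falls. Their sizes were nearly equal under both agents, with medians of 0.50 with DMSO and 0.51 with compound 3 for rises and of -0.68 and -0.67 for falls. A call under both agents was required of these rows, which leaves out small compound 3 changes, so the near-equal sizes are a description. Of the 498, 255 changed further with DMSO, and in 0 was the difference between the agents called, although 13 had it at an unadjusted p below 0.05 against the DMSO direction. Falls of at least 2-fold under both agents were found in 38 rows, and such a rise in 1.

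The share of kept rows was read by the size of the DMSO change, as a description with no test. Among rows that fell by at least 1 log2 unit with DMSO, 72 of 110 (65.5%) were kept, against 184 of 561 (32.8%) at 0.5 to 1 and 72 of 289 (24.9%) under 0.5. Among rises the counts were 6 of 8, 79 of 309 (25.6%) and 85 of 436 (19.5%). The count of kept rows was 31 without the replicate block. It was 102, 150 and 648 without compound 3 8 h replicates 1, 2 and 3, 143, 308 and 301 without compound 3 24 h replicates 1, 2 and 3, and 151, 166 and 192 without DMSO 8 h replicate 1, DMSO 24 h replicate 1 and DMSO 24 h replicate 2.

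A further 1200 rows (70.1%) were undecided. They changed with DMSO, were not called in the same direction with compound 3, and had no called difference between the agents. Of these, 582 rose and 618 fell with DMSO. With compound 3, 1126 (93.8%) had the same sign, and 599 (49.9%) reached an unadjusted p below 0.05 that way, beside 2878 (24.2%) of all rows tested. In 2 of the falls, a rise with compound 3 passed the test. The median compound 3 change was 0.27 for the rises, against 0.46 with DMSO, and -0.28 for the falls, against -0.56. In 233 of the 1200 (19.4%) the difference had an unadjusted p below 0.05 against the DMSO direction, beside 615 (5.17%) of all rows tested. The DMSO change that chose these rows enters that difference, so nothing is read from the count. As a class these rows show neither that a change persisted nor that it was lost. The other way round, 375 rows were called with compound 3 and not with DMSO, and 335 of them had the same sign with DMSO.

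Row 14609 had the largest difference between the agents among the undecided rises that reached a mean of 10 CPM. It held 5.28, 6.60 and 6.61 CPM at 8 h and 10.3, 9.26 and 11.7 CPM at 24 h with DMSO. With compound 3 it held 5.38, 8.52 and 8.33 CPM at 8 h and 6.02, 5.92 and 6.68 CPM at 24 h. The DMSO groups did not overlap, while the compound 3 24 h libraries lay within the range of the compound 3 8 h libraries. The log2 fold change was 0.67 (SE 0.13; limma adjusted p = 0.00892) with DMSO and -0.20 (SE 0.13; limma adjusted p = 0.36) with compound 3. The DMSO call ended without the block (limma adjusted p = 0.0618), without DMSO 8 h replicate 1 (limma adjusted p = 0.0607), without DMSO 24 h replicate 1 (limma adjusted p = 0.0708) and without all 4 libraries numbered 1 (limma adjusted p = 0.091). The difference of -0.87 (SE 0.19; limma adjusted p = 0.130) did not pass the test, although DESeq2 called it (adjusted p = 0.0117).

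A loss of the time change passed the test in few rows, and nearly all of them were falls. The difference between the compound 3 and DMSO time changes was called in 19 of the 11889 rows (0.16%), 18 above 0 (0.151%) and 1 below 0 (0.00841%). At an unadjusted p below 0.05 there were 713 rows, where the share of 0.05 expected of unchanged rows comes to 594. Of the 19, 15 had changed with DMSO and were called against the DMSO direction: 14 falls and 1 rise. The rise was in a weakly expressed row, at 2.43, 1.44 and 2.27 CPM at 8 h and 4.66, 3.23 and 4.58 CPM at 24 h with DMSO. With compound 3 that row held 2.03, 1.01 and 1.30 CPM at 8 h and 0.557, 0.538 and 0.417 CPM at 24 h, so that its 24 h libraries lay above the 8 h ones with DMSO and below them with compound 3. No row was called without the replicate block (limma; smallest adjusted p = 0.20; 294 rows at an unadjusted p below 0.05). With the block, edgeR called 26 rows and DESeq2 83, and 14 and 15 of the 15 lost rows were lost by these tools too. The difference shares its DMSO libraries with the DMSO time change that chose these rows, so the overlap is a count and no support.

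The compound 3 changes of the 14 lost falls were all above 0. They entered the difference that chose these rows, so the values here are a description. Their median log2 fold change was -0.87 with DMSO (-2.05 to -0.39) and 0.68 with compound 3 (0.39 to 1.37). In 12 of them the rise with compound 3 itself passed the limma test with the block (background 3.05%). Without the block 0 of the 14 passed it (limma adjusted p = 0.0891 to 0.432), and 3 of the 14 falls with DMSO did. Of all 11889 rows, 22 rose with compound 3 and 121 fell with DMSO without the block, so the 0 is near the share over all rows. Their difference had a median of 1.55 (1.09 to 3.17). Mean expression over the 12 libraries had a median of 9.99 CPM, beside 24.7 CPM over all rows tested. The signs held in all 14 under every alternative scaling, filter and left-out library in which they were tested, while the number of them called for the difference ran from 0 to 14.

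Library by library, the separation lay at 24 h. The median log2(CPM + 1) over the 14 rows was 3.22, 3.19 and 3.07 at 8 h and 2.53, 2.65 and 2.44 at 24 h with DMSO, numbers 1 to 3. With compound 3 it was 3.22, 3.31 and 3.56 at 8 h and 3.87, 4.33 and 4.32 at 24 h. The 8 h libraries of both agents were close, and the 24 h libraries lay below them with DMSO and above them with compound 3. In all 14 rows every compound 3 24 h library exceeded every DMSO 24 h library, while the 8 h ranges overlapped in 13. In 11 rows every DMSO 24 h library lay below every DMSO 8 h library, and in 5 every compound 3 24 h library lay above every compound 3 8 h library. The DMSO times did not overlap, in either direction, in 21% of all rows tested and in 78.5% of the rows that changed with DMSO. For the agents at 8 h or 24 h and for the compound 3 times no share over all rows was counted. These counts are therefore not read as a trait of the 14 rows. None of the 14 was called between the agents at 8 h, where the median difference was 0.07 and 12 rows in all were called, each lower with compound 3 (0.101%). At 24 h all 14 were higher with compound 3 (background 1.88% higher, 0.572% lower and 2.45% either way; median 1.67, 0.73 to 3.24), 12 of them at least 2-fold, and 8 also without the block. Of all 11889 rows, 49 were called at least 2-fold higher there with the block, and 27 were called higher without it. The comparison of the agents at 24 h uses the same 24 h libraries as the choice of the rows and is a description.

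The 328 kept falls had another course, which their class rule requires, since they were called lower under both agents. Their median log2(CPM + 1) was 4.13, 3.83 and 3.61 at 8 h and 3.05, 3.03 and 3.02 at 24 h with DMSO. With compound 3 it was 4.11, 3.85 and 3.62 at 8 h and 3.00, 3.18 and 3.02 at 24 h. The spread at 8 h followed the replicate number under both agents, and the 24 h libraries lay together.

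**Figure D4:**
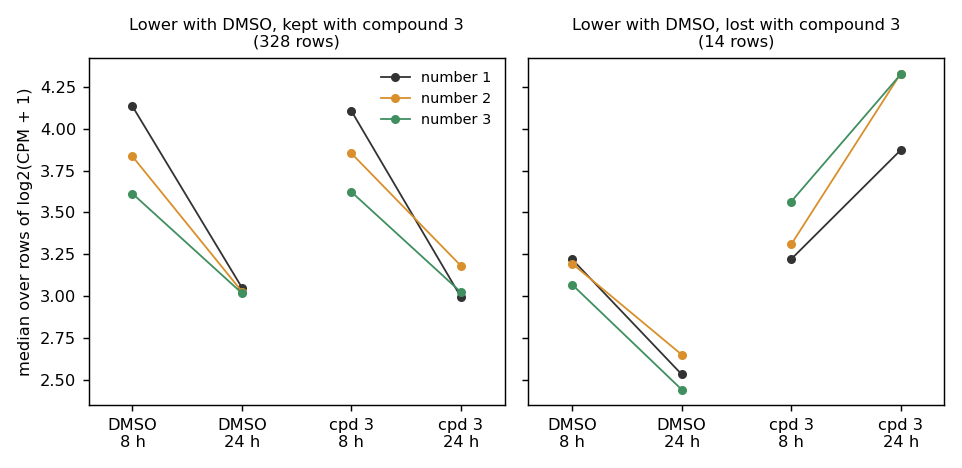
Median log2(CPM + 1) over the 328 kept falls (left) and the 14 lost falls (right) in each of the 12 libraries; lines join libraries of the same replicate number. The kept falls drop to about the same level under both agents, while the lost falls end at 2.44 to 2.65 with DMSO and at 3.87 to 4.33 with compound 3. Both classes were chosen on these libraries, so the contrast is a description.

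Many of these calls ended when 1 library was left out. The count of lost rows, 15 in all, was 0 without the block. It was 3, 6 and 7 without DMSO 8 h replicates 1, 2 and 3, 8 and 3 without compound 3 8 h replicates 1 and 2, 7 without DMSO 24 h replicate 1 or 3, and 5 and 3 without compound 3 24 h replicates 2 and 3. The count of rows with a called difference, 19 in all, was 3, 6 and 7 without DMSO 8 h replicates 1, 2 and 3, 9 and 3 without compound 3 8 h replicates 1 and 2, 10 without DMSO 24 h replicate 3, and 5 and 3 without compound 3 24 h replicates 2 and 3.

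Row 2626 had the largest difference between the time changes among the lost falls that reached a mean of 10 CPM. It held 53.0, 44.7 and 120.5 CPM at 8 h and 9.25, 19.5 and 19.2 CPM at 24 h with DMSO. With compound 3 it held 50.1, 47.8 and 138.4 CPM at 8 h and 108.5, 135.8 and 236.1 CPM at 24 h. Number 3 was the highest library at 8 h under both agents and at 24 h with compound 3. The DMSO times did not overlap, whereas the compound 3 times did, through number 3 at 8 h. The log2 fold change was -2.05 (SE 0.22; limma adjusted p = 0.00037) with DMSO, called in all 25 alternative settings. With compound 3 it was 1.12 (SE 0.22; limma adjusted p = 0.0137), a call that ended without the block (limma adjusted p = 0.262) and without compound 3 8 h replicate 1, compound 3 8 h replicate 2 or compound 3 24 h replicate 1 (limma adjusted p = 0.0658, 0.0805 and 0.0562). It also ended without the filter on low values (limma adjusted p = 0.0543) and without all 4 libraries numbered 1 (limma adjusted p = 0.131). The difference was 3.17 (SE 0.32; limma adjusted p = 0.00114), and its call ended without the block (limma adjusted p = 0.481), without the filter (limma adjusted p = 0.0592) and without all 4 libraries numbered 1 (limma adjusted p = 0.141).

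The same rows can be read in other OCI-Ly3 libraries of the series, in which the cells carried a lentiviral hairpin against MALT1, one of a pair of sequences, or a non-targeting hairpin, with 3 libraries each and no compound. These 9 libraries did not take part in choosing the rows, but both hairpins share the non-targeting controls. It was already known that rows raised by compound 3 at 24 h overlap with rows raised by the hairpins, so the following is not independent support. All 14 lost falls were tested there. Hairpin 1 raised 12 of them (background 1.62% of 11660 rows) and hairpin 2 raised 13 (background 21%), and 12 (85.7%) were raised by both (background 1.46%). Their median log2 fold changes were 1.90 with hairpin 1 and 2.69 with hairpin 2, and none was lowered by either (background of rows lowered 1.67%, 21.8% and, by both, 1.18%). Non-targeting replicate 1 stood apart: 1136 of its rows deviated by over 1 log2 unit from the average of its fellow controls, whose own counts of such rows were 159 and 135. Without it both hairpins raised 13 of the 14 (92.9%), beside 4.74% of all rows tested in both sets of libraries.

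The kept and undecided falls are set beside these rows with no test between the classes. Of the 306 kept falls tested in the knockdown, 9 (2.94%) were raised and 6 (1.96%) lowered by both hairpins, with median log2 fold changes of -0.02 and 0.16. Among the 580 undecided falls, 25 (4.31%) were raised and 5 (0.862%) lowered by both, with medians of 0.17 and 0.45. Over all 11368 rows tested in both sets of libraries, 1.43% were raised and 1.21% lowered by both. Of the 577 undecided rises, 18 (3.12%) were lowered by both hairpins and 1 (0.173%) was raised. Counted by itself, hairpin 2 raised 95 and lowered 40 of the 306 kept falls, and raised 275 and lowered 45 of the 580 undecided falls. It lowered 293 and raised 26 of the 577 undecided rises. Over the 11368 rows it raised 2309 and lowered 2532. Movement against the DMSO direction with hairpin 2 was thus not limited to the lost falls. Leaving out any hairpin 1 library reduced the lost rows moved against the DMSO direction by both hairpins from 13 of 15 to 5. Row 2626 had means of 15.01 CPM with the non-targeting hairpin, 215 CPM with hairpin 1 and 356 CPM with hairpin 2, log2 fold changes of 4.13 (limma adjusted p = 0.00992) and 4.83 (limma adjusted p = 0.000361). Without non-targeting replicate 1 the largest hairpin 1 change of any lost fall was 3.31, so the 4.13 of row 2626 leaned on that control. Row 4302 did not pass the test with either hairpin (log2 fold changes 0.20 and 0.28; limma adjusted p = 0.43 and 0.167), nor did row 16032 (0.80 and -0.69; limma adjusted p = 0.27 and 0.184). Row 14609, which was lower with compound 3 than with DMSO at 24 h (log2 difference -0.66; limma adjusted p = 0.0227), was raised by hairpin 2 (0.57; limma adjusted p = 0.0076) and not called with hairpin 1 (-0.16; limma adjusted p = 0.463).

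**Figure D5:**
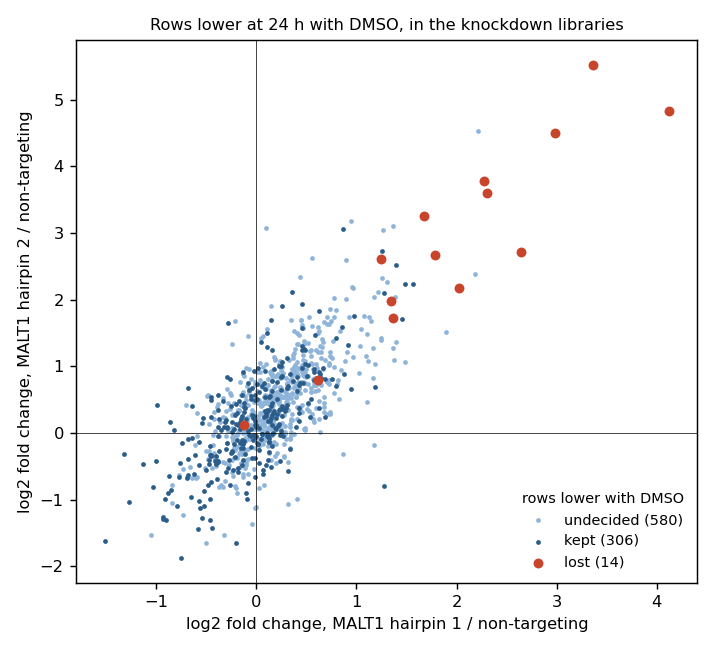
Log2 fold change against the non-targeting hairpin with MALT1 hairpin 1 (horizontal) and hairpin 2 (vertical) for the 900 rows that fell with DMSO between 8 h and 24 h and were tested in the OCI-Ly3 knockdown libraries. Of the 14 lost falls (red), 12 lie above 1 on both axes, while the medians of the kept falls (dark blue) are -0.02 and 0.16 and those of the undecided falls (light blue) 0.17 and 0.45; both axes share the control libraries.

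TMD8, another established line of the same lymphoma type, was given the same agents for the same times, and its libraries took no part in the choice of rows. Of the OCI-Ly3 rises, 722 were tested in TMD8 with DMSO: 666 (92.2%) had the same sign, beside 72.9% of all rows above 0 in OCI-Ly3, 16 rose (2.22%; background 0.613%) and 0 fell, with a median log2 fold change of 0.40. Of the OCI-Ly3 falls, 824 were tested: 649 (78.8%) had the same sign, beside 64.8% of all rows below 0 in OCI-Ly3, 79 fell (9.59%; background 1.7%) and 6 rose, with a median of -0.29. All 14 lost falls lay below 0 in TMD8 with DMSO (median -1.06, -1.85 to -0.31), and 8 of them fell (57.1%). With compound 3 their TMD8 median was -0.94, and the difference between the agents was called in 0 of them. It was called in 0 of all 11736 rows tested in TMD8 (limma without a block), so this is no trait of the lost falls. At an unadjusted limma p below 0.05 there were 75 of the 11736 rows, 1 of the 14 among them. That is well under the share of 0.05 expected of unchanged rows, so this fit could hardly call a difference. The counts therefore do not show that the agents had the same time change in TMD8. Without the block the OCI-Ly3 difference was called in 0 rows too, so these counts of called rows do not set the lines apart. For row 2626 the TMD8 log2 fold change was -1.64 with DMSO (limma adjusted p = 0.0472) and -1.14 with compound 3 (limma adjusted p = 0.119).

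The TMD8 counts also moved with the block and with single libraries. The 95 OCI-Ly3 time changes that were called in the same direction in TMD8 became 322 with the replicate number as a block. They became 16 and 12 without TMD8 DMSO 8 h replicates 1 and 3, and 34, 23 and 15 without TMD8 DMSO 24 h replicates 1, 2 and 3. The TMD8 8 h libraries numbered 1 stood apart: 536 (DMSO) and 549 (compound 3) of their rows deviated by over 1 log2 unit from the average of their group, where numbers 2 and 3 had 54 to 141 such rows. Without both of them, 42 of 722 rises (5.82%; background 0.937%) and 73 of 824 falls (8.86%; background 1.51%) were called in the same direction. Of the 14 lost falls, 7 fell (50%). A test of the difference itself, in a fit of all 24 libraries with either line, called 29 of 12589 rows (0.23%) whose DMSO time change differed between the lines, 8 higher and 21 lower in OCI-Ly3. That fit has no block, and with a block of line and number it called 336. Of the 29, 3 were OCI-Ly3 rises called higher in OCI-Ly3, 17 were OCI-Ly3 falls called lower there, and 0 were lost rows. Of the 12589 rows tested, 1713 had changed with DMSO in OCI-Ly3. The OCI-Ly3 libraries that chose those rows also enter the line difference, so nothing is read from the overlap. The count of differing rows, 29 in all, was 10 and 49 without OCI-Ly3 DMSO 8 h replicates 1 and 3. It was 12, 9 and 4 without OCI-Ly3 DMSO 24 h replicates 1, 2 and 3. It was 7, 66 and 18 without TMD8 DMSO 8 h replicates 1, 2 and 3, and 14 and 6 without TMD8 DMSO 24 h replicates 2 and 3.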

How the data were processed

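The libraries came from a stranded mRNA kit, per the labels' protocols. The aligner STAR, with no version stated, and the genome build hg19 are named, per the submitters' processing notes. How reads were counted, on which strand, and which total was used for scaling is not stated in the sources used here. The authors deposited CPM, and 100% of these values were whole multiples of their library's smallest step (tolerance 1e-06), which recovers the reads. Rows that share reads with near-identical or overlapping genes could not be set apart.

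Levels were tested as log2(CPM + 1) with limma 3.58.1 in R 4.3.3. The model held a mean for each of the 4 groups and the replicate number as a block, its variance prior followed the mean level, and two-sided p-values were adjusted by Benjamini-Hochberg. Fold changes on this scale understate those of low rows. The block was used because titles give groups the same numbers. The correlation of deviations passed 0.1 in every pair but number 1 of the compound 3 times, so results are also given without it. Chi-square per degree of freedom between replicates ran from 11.6 to 75.3, above sampling noise, so each library counts once. edgeR 4.0.16 (quasi-likelihood, TMM) and DESeq2 1.42.0 on recovered reads, a pseudocount of 0.25, no filter, a CPM of 5, median-ratio and quantile scaling, all 24 libraries and left-out libraries were alternatives. TMD8 and knockdown libraries were each fitted alone and the line difference on all 24 libraries, without a block. The fits were tested on simulated data. Rows printed by number are, per direction, the kept row with the largest DMSO change and the lost row with the largest difference (at least 10 CPM in the higher DMSO group). Where no lost row reached that level, the undecided row with the largest difference was taken. The comparisons and classes were chosen with earlier results of these data known. The TMD8 knockdown is not used here.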

Additional observations from a re-analysis of the deposited data

Results flagged for a closer look

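In 19 rows the change from 8 h to 24 h differed between compound 3 and DMSO by the test of the difference itself (limma with the replicate block), 18 above and 1 below 0. The largest such difference among rows that changed with DMSO was 3.17 log2 units, in row 2626, where libraries fell with DMSO in all 3 pairs and lay higher at 24 h with compound 3 in all 3 pairs. In 29 rows the DMSO time change differed between OCI-Ly3 and TMD8 by the same kind of test, without a block, 21 of them lower in OCI-Ly3. No explanation of these differences was tested.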

How the results depend on the processing

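All 1713 DMSO time changes kept their sign in every setting in which they were tested, but counts of called rows moved. The rows were chosen on these libraries, so the kept signs are no further support. The numbers that follow give, in this order, rows called with DMSO (1713), with compound 3 (888), for the difference (19), kept (498) and lost (15). Without the replicate block they were 162, 74, 0, 31 and 0. Without a filter on low values they were 965, 536, 1, 247 and 1. Without all 4 libraries numbered 1 they were 184, 68, 0, 31 and 0, without those numbered 2 they were 368, 48, 2, 30 and 2, and without those numbered 3 the lost rows were 7. The fits without a number, and those of each agent alone (438 with compound 3, 274 kept), were chosen after seeing the data. DESeq2 gave 1395 with compound 3, 83 for the difference, 776 kept and 57 lost. A CPM of at least 5 left 8 for the difference and 7 lost, quantile normalization 7 and 6, and all 24 libraries gave 36 and 24. Leaving out 1 library gave ranges of 255 to 1932, 149 to 1418, 3 to 27, 102 to 648 and 3 to 22. OCI-Ly3 changes called in TMD8 (95) became 322 with the replicate block, and ranged from 12 to 85 without 1 library. The line difference (29) was 336 with the block, 48 after quantile normalization and 4 to 66 without 1 library. Lost rows moved back by both hairpins ranged from 5 to 14. The difference for row 4302, 0.13, ranged from -0.32 to 0.67 without 1 library and was below 0 without DMSO 8 h replicate 1 (-0.12) or 2 (-0.17), compound 3 8 h replicate 3 (-0.32), DMSO 24 h replicate 1 (-0.16) or 2 (-0.13), or compound 3 24 h replicate 3 (-0.32). The cause was not tested. The chi-square per degree of freedom between replicates was at least 11.6 over all rows, so the spread between libraries exceeded counting error.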
